A study of Mus musculus with 10 samples.

Results

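Collagen chain genes were followed in the prostates of mice given nicotine or water. The genes were chosen by name: every gene whose annotation symbol reads Col, a number, a and a number was taken, with 1 probe set per gene, the one with the highest mean over the 10 arrays. There were 44 such genes among 19938 genes with their own probe set, and all 44 passed the filter on low means and were among the 14953 genes tested. By collagen type they fall into 11 fibrillar chains, 6 basement membrane chains of type IV, 9 FACIT chains (fibril-associated collagens with interrupted triple helices) and 18 other chains.

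The nicotine group was 5 male TRAMP mice that drank tap water with 250 µg/ml of nicotine, given as nicotine tartrate, from an age of 8 to 9 weeks. The water group was 5 male TRAMP mice that drank tap water alone. All 10 mice carry the TRAMP transgene, in which the promoter of probasin (Pbsn), a gene of secretory prostate cells, drives a viral T antigen in the epithelium so that tumours form in the gland. No source used here gives the age at collection or the share of tumour in each prostate, and fewer cells of a type and less RNA per cell cannot be told apart in such whole-tissue RNA.

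Collagens are the main structural proteins of connective tissue. Their chains wind around each other in threes to make a rope-like helix, and a chain is named after the type it belongs to. Fibrillar collagens form the tensile fibrils between cells and are made mostly by fibroblasts and smooth muscle cells, FACIT chains sit on the surface of those fibrils, and type IV chains form the mesh under epithelia and around vessels and muscle cells. In the prostate, the epithelial glands rest on this mesh and are wrapped in a fibromuscular stroma.

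The arrays of nicotine mice 1 and 3 stood apart. Chga, a secretory granule gene of neuroendocrine cells, was at 11.7 and 11.3 log2 units in nicotine mice 1 and 3, at 7.35 to 7.52 in nicotine mice 2, 4 and 5, and at 7.07 to 7.73 in water mice. Pbsn itself was at 9.17 in nicotine mouse 1 and at 5.08 in nicotine mouse 3, against 10.9 to 12.2 in nicotine mice 2, 4 and 5 and 10.95 to 11.5 in water mice. The prostate marker was thus far below the other arrays in nicotine mouse 3. Results are given with all 10 mice and without the 2 arrays with Chga above 9. The mean of the seminal vesicle marker list also varied, and not evenly between the groups. It was 12.5 in nicotine mouse 5 and 5.92 to 8.54 in the other nicotine mice. In water mice 3, 4 and 5 it was 12.1 to 13.2, and in water mice 1 and 2 it was 7.21 and 7.31. All 10 members had a negative difference, nicotine minus water, with a median of -2.23 log2 units, and -0.98 without nicotine mice 1 and 3. With 5 arrays in each group, the number of arrays limits precision.

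No collagen chain passed the test. By limma over all tested genes, 0 of 44 chains had an adjusted p under 0.05, where 0.0% of all genes did, and the smallest adjusted p of a chain was 0.458. At an unadjusted p under 0.05, 7 chains were lower in nicotine mice and 0 were higher, where 5.84% of all genes were lower and 4.28% higher. The 7 were Col1a2, Col3a1 and Col5a2 of the fibrillar chains, Col12a1 and Col14a1 of the FACIT chains, and Col6a1 and Col6a5 of type VI. In 0 chains did the nicotine and water mice not overlap, where the share of all genes was 2.88% lower and 2.02% higher. In all, 21 of 44 differences were negative, near the 49.3% of all genes.

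Without nicotine mice 1 and 3, 0 of 44 chains passed by limma, again with 0.0% of all genes, and the smallest adjusted p of a chain was 0.0947. Then 10 chains were lower at an unadjusted p under 0.05 and 0 were higher, where 8.69% of all genes were lower and 6.01% higher. The 10 held all 7 chains above, with Col1a1, Col8a1 and Col15a1 added. In 6 chains, Col1a1, Col1a2, Col5a2, Col12a1, Col14a1 and Col15a1, nicotine mice 2, 4 and 5 all lay below all 5 water mice, where 6.47% of all genes did so; in 0 chains did they all lie above, where 4.12% of all genes did. Negative differences were 20 of 44, near the 46.5% of all genes. In this fit 33 of 44 chains differed by less than 0.2 log2 units in either direction, where 13481 of the 14953 tested genes did so.

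**Figure D1:**
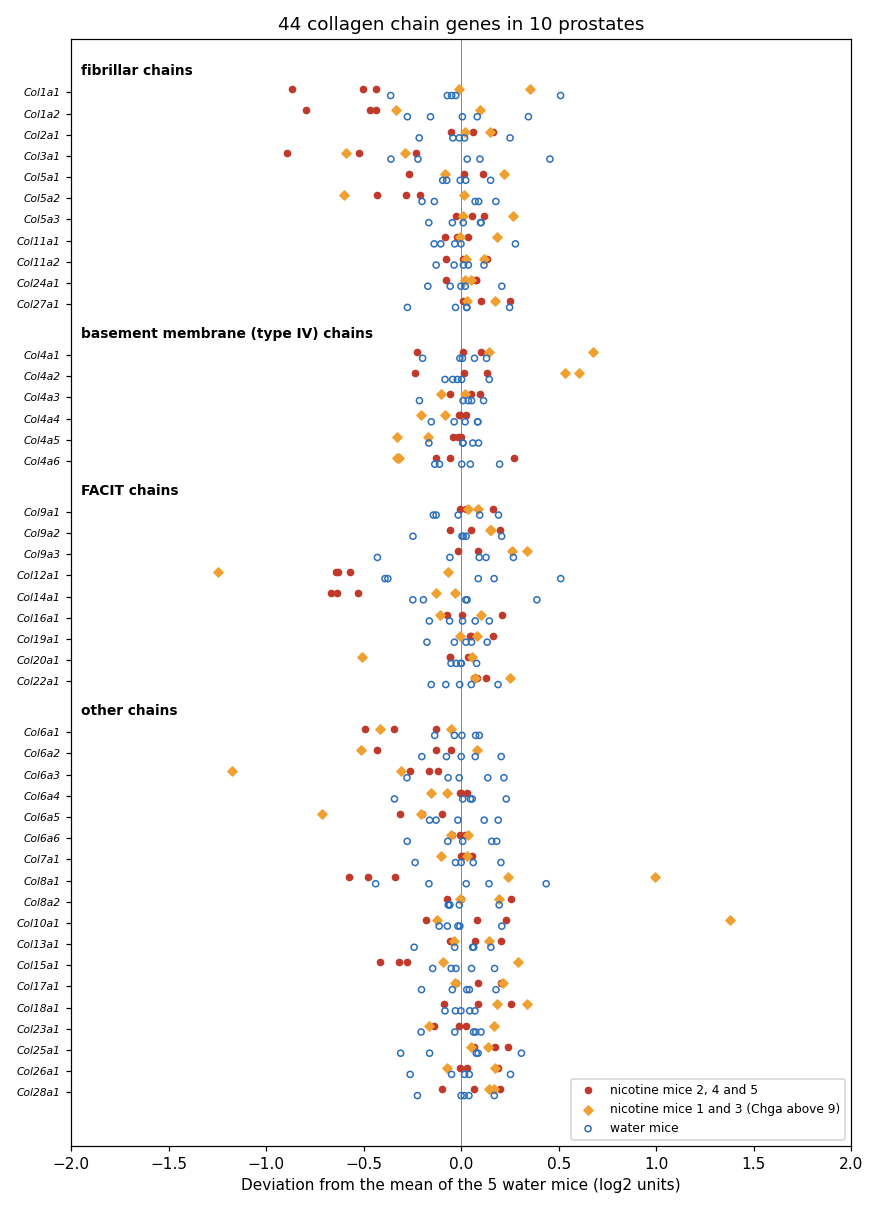
Each chain's value in each mouse as the deviation from the mean of the 5 water mice, in log2 units, with chains grouped by class. Filled circles are nicotine mice 2, 4 and 5, diamonds are nicotine mice 1 and 3, and open circles are water mice. Col1a1, Col1a2, Col5a2, Col12a1, Col14a1 and Col15a1 have all 3 filled circles left of every open circle, Col10a1 and Col8a1 have 1 diamond far to the right, and most chains lie around 0.

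The fibrillar chains that were lower at an unadjusted p under 0.05 belong to types I, III and V. These types were grouped after their values were seen, so their count and median partly restate that choice. Of the 6 chains of these types, 5 had a negative difference, nicotine minus water, where 49.3% of all genes did. The median was -0.30 log2 units over the 6 chains, and 1 of the 5, Col5a1, was at -0.0003. The count was 4 of 6 with arrays centred or quantile-normalized again and without nicotine mouse 3 or 4 or water mouse 2 or 5. The median over all 11 fibrillar chains was 0.02, against 0.004 over all tested genes. Without nicotine mice 1 and 3 the medians were -0.43 over the 6 chains, -0.02 over the 11 and 0.01 over all tested genes.

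Col1a1 and Col1a2 encode the chains of type I collagen, the main fibril of connective tissue. Col1a1 was at 10.01, 9.22, 9.65, 8.79 and 9.15 log2 units in nicotine mice 1 to 5, against 10.2, 9.63, 9.61, 9.30 and 9.59 in water mice 1 to 5. Nicotine mice 2, 4 and 5 lay below every water mouse, while nicotine mice 1 and 3 lay within the range of the water mice. The difference was -0.29 ± 0.23 (SE), and without nicotine mice 1 and 3 it was -0.60 ± 0.17 (adjusted p = 0.153 by limma), or 0.658 times the water level.

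Its partner Col1a2 was also highest in mouse 1 and lowest in mouse 4 among nicotine mice, with 9.63, 9.07, 9.20, 8.74 and 9.10 log2 units in nicotine mice 1 to 5, against 9.88, 9.54, 9.62, 9.26 and 9.38 in water mice 1 to 5. The groups overlapped only through nicotine mouse 1. The difference was -0.39 ± 0.17 (SE; unadjusted p = 0.0441, adjusted p = 0.458 by limma), and without nicotine mice 1 and 3 it was -0.57 ± 0.13 (adjusted p = 0.119). In both chains water mouse 1 was the highest of all 10 mice and nicotine mouse 4 the lowest.

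Col3a1 encodes type III collagen, which mixes with type I in the fibrils of soft tissue. It was at 9.17, 9.22, 8.86, 8.56 and 8.93 log2 units in nicotine mice 1 to 5, against 9.91, 9.55, 9.48, 9.09 and 9.23 in water mice 1 to 5. The groups overlapped through water mouse 4, and nicotine mice 1 and 3 did not stand apart here. The difference was -0.50 ± 0.17 (SE; unadjusted p = 0.0156, adjusted p = 0.458 by limma), close to the -0.55 ± 0.18 found without nicotine mice 1 and 3.

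Type V chains join type I fibrils at their start and limit their width, and their values differed from chain to chain. Col5a2 was at 7.88, 7.65, 7.26, 7.43 and 7.58 log2 units in nicotine mice 1 to 5, against 8.04, 7.93, 7.95, 7.66 and 7.72 in water mice 1 to 5. Every nicotine mouse but mouse 1 lay below all water mice. The difference was -0.30 ± 0.12 (SE; unadjusted p = 0.0351, adjusted p = 0.458 by limma), and -0.31 ± 0.09 without nicotine mice 1 and 3. Its partners Col5a1, at -0.0003 ± 0.097, and Col5a3, at 0.08 ± 0.08, were not lower at an unadjusted p under 0.05. Col2a1, the main fibrillar chain of cartilage, differed by 0.07 ± 0.09 (SE). The 5 fibrillar chains of types II, XI, XXIV and XXVII had differences from 0.02 to 0.11, and none had an unadjusted p under 0.05.

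RefSeq promoter sequences were at hand for 35 of the 44 chains, among them 4 of the 7 chains above, Col1a2, Col3a1, Col6a1 and Col6a5. The 250 bases before each annotated start are shown because these chains had an unadjusted p under 0.05, with assembly GRCm38.p6 positions chr6:4505368-4505617 on the plus strand for Col1a2, chr1:45311288-45311537 on the plus strand for Col3a1, chr10:76726045-76726294 on the minus strand for Col6a1 and chr9:105960644-105960893 on the minus strand for Col6a5. Each is written 5′ to 3′ on the strand of its gene, and capitals mark a match to CCAAT or TATAAA on either strand.
Col1a2: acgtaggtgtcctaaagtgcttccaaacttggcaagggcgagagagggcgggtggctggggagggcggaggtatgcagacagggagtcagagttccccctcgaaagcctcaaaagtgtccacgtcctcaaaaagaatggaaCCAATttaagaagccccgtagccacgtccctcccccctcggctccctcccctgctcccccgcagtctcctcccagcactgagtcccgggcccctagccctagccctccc
Col3a1: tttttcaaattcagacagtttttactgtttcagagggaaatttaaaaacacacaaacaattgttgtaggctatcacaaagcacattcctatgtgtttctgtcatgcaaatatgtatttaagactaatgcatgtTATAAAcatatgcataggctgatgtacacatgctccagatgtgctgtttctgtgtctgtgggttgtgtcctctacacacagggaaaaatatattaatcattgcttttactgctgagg
Col6a1: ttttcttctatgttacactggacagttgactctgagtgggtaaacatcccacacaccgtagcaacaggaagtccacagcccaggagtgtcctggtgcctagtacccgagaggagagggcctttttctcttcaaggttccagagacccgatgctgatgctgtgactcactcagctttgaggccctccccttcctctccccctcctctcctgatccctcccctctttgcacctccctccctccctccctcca
Col6a5: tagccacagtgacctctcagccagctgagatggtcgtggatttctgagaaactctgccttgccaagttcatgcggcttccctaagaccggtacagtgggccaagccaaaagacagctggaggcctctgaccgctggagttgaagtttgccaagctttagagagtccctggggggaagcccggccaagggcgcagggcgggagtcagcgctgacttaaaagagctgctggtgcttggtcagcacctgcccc

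The window of Col1a2 held 1 CCAAT, starting at position -109 from the annotated start, and no TATAAA. The window of Col3a1 held 1 TATAAA, at position -117, and no CCAAT, and the windows of Col6a1 and Col6a5 held neither. The letters do not overlap each other in these windows. Among all 32851 promoter windows of this length, 33.8% held CCAAT and 12.4% held TATAAA on either strand; among the 38 windows of the 35 chains, 13 and 5 did.

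**Figure D2:**
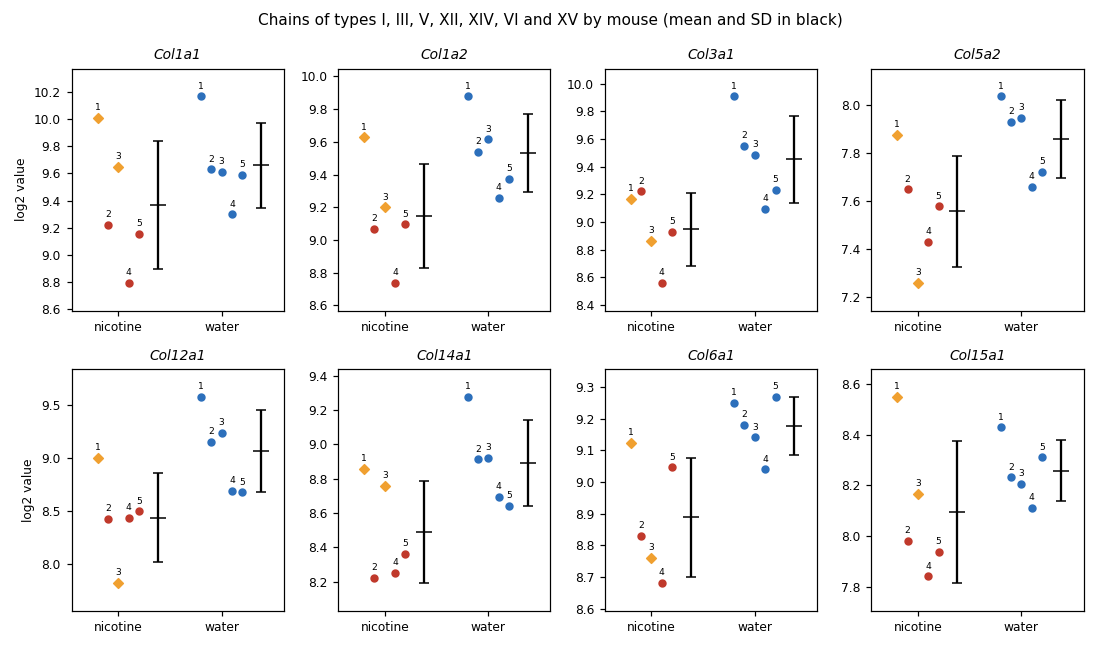
Log2 values of 8 chains by mouse, nicotine on the left and water on the right of each panel, with mouse numbers above the points and the mean and SD of 5 mice in black. Diamonds are nicotine mice 1 and 3. In Col1a1 and Col14a1 the diamonds lie among the water mice while nicotine mice 2, 4 and 5 lie below them, in Col15a1 nicotine mouse 1 is the highest of all, and in Col12a1 nicotine mouse 3 is the lowest of all at 7.82.

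Among the 9 FACIT chains, Col12a1 and Col14a1 were lower at an unadjusted p under 0.05. Col12a1, which encodes a chain of dense connective tissue, had the largest difference of all 44 chains with all mice. It was at 9.01, 8.43, 7.82, 8.44 and 8.50 log2 units in nicotine mice 1 to 5, against 9.58, 9.16, 9.24, 8.69 and 8.68 in water mice 1 to 5. Only nicotine mouse 1 reached into the range of the water mice. The difference was -0.63 ± 0.23 (SE; unadjusted p = 0.0230, adjusted p = 0.458 by limma), or 0.645 times the water level, and it was -0.62 ± 0.18 without nicotine mice 1 and 3.

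Col14a1 encodes a related FACIT chain found on mature fibrils. It was at 8.86, 8.22, 8.76, 8.25 and 8.36 log2 units in nicotine mice 1 to 5, against 9.28, 8.91, 8.92, 8.70 and 8.64 in water mice 1 to 5. Nicotine mice 2, 4 and 5 were again below all water mice and nicotine mice 1 and 3 among them. The difference was -0.40 ± 0.16 (SE; unadjusted p = 0.0358, adjusted p = 0.458 by limma). Without nicotine mice 1 and 3 it was -0.61 ± 0.12 (adjusted p = 0.0947), the smallest p of any chain in that fit.

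The other FACIT chains did not share this. Of the 9 chains, 6 had a positive difference, and the median was 0.06 with all mice and also 0.06 without nicotine mice 1 and 3. The type IX chains of cartilage, Col9a2 (0.10 ± 0.09 SE) and Col9a3 (0.19 ± 0.13), and Col22a1 (0.12 ± 0.08), known from junctions of muscle and tendon, did not pass at an unadjusted p under 0.05. Col9a3 had 1 low array, water mouse 1 at 7.72, against 8.13 to 8.49 in nicotine mice and 8.09 to 8.41 in the other water mice.

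**Figure D3:**
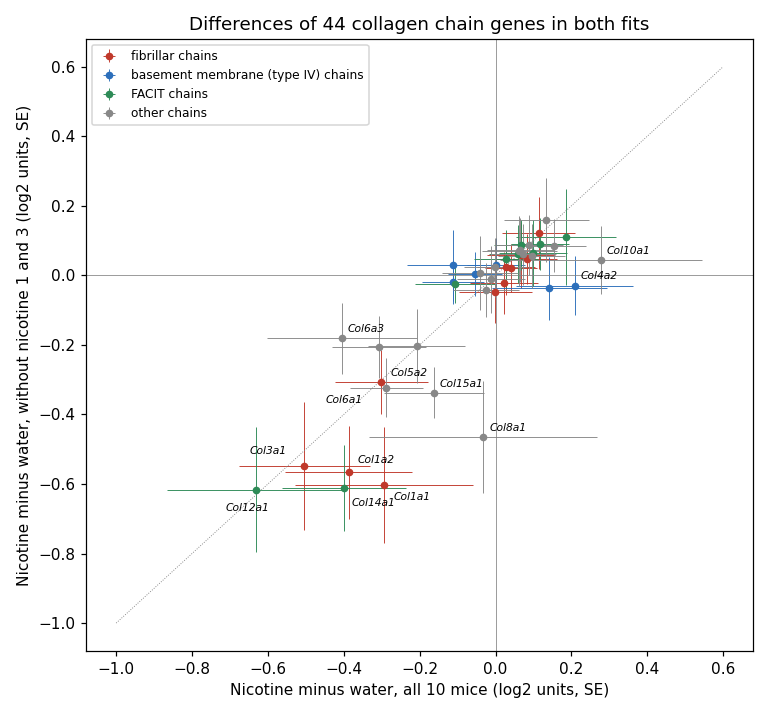
Difference of each of the 44 chains, nicotine minus water in log2 units, with all 10 mice on the horizontal axis and without nicotine mice 1 and 3 on the vertical axis, bars giving SEs and colours the class. Points on the dotted line had the same difference with and without those 2 mice together, which can also arise where the 2 mice offset each other. In Col12a1 nicotine mouse 1 deviated from the water mean by -0.07 and nicotine mouse 3 by -1.25. Col3a1 and Col12a1 are close to the line, Col1a1, Col14a1, Col15a1 and Col8a1 lie below it, and Col4a2 changes side of 0.

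Type IV chains had no common direction. Of the 6 chains, 3 were positive and 3 negative, with a median of -0.03, and without nicotine mice 1 and 3 all 6 were within 0.04 log2 units of 0, from -0.04 to 0.03. No type IV chain reached an unadjusted p under 0.05 in either fit. Col4a1 and Col4a2, the chains of nearly every basement membrane, are neighbours that run in opposite directions from starts 21 bases apart in RefSeq GRCm38.p6.

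Col4a1 was at 8.95, 8.38, 8.42, 8.05 and 8.28 log2 units in nicotine mice 1 to 5, against 8.34, 8.27, 8.28, 8.08 and 8.40 in water mice 1 to 5. Col4a2 was at 8.70, 8.23, 8.63, 7.86 and 8.11 in nicotine mice 1 to 5, against 8.10, 8.07, 8.05, 8.01 and 8.24 in water mice 1 to 5. Nicotine mouse 1 was the highest of all 10 mice in both chains and nicotine mouse 4 the lowest. The differences were 0.14 ± 0.15 (SE) and 0.21 ± 0.15, and without nicotine mice 1 and 3 they were -0.04 ± 0.09 and -0.03 ± 0.09.

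Col4a5 and Col4a6, chains of more restricted basement membranes, were at or near their lowest in the same 2 arrays in which Col4a2 was high. Col4a5 was at 7.33 and 7.17 log2 units in nicotine mice 1 and 3, at 7.46 to 7.50 in nicotine mice 2, 4 and 5 and at 7.34 to 7.59 in water mice. Col4a6, which pairs with Col4a5 in basement membranes of smooth muscle, was at 7.27 and 7.29 in nicotine mice 1 and 3, at 7.47 to 7.87 in nicotine mice 2, 4 and 5 and at 7.47 to 7.80 in water mice. Both genes had differences of -0.11 with all mice, with SEs of 0.08 and 0.12, and of -0.02 and 0.03 without those 2. The smooth muscle marker list moved with these arrays: its mean was 10.1 in nicotine mouse 1 and 8.01 in nicotine mouse 3, against 10.7 to 10.9 in nicotine mice 2, 4 and 5 and 10.5 to 10.8 in water mice. All 10 members were negative with all mice. Without nicotine mice 1 and 3, 2 were negative and 8 positive, with a median of 0.06. The part of this list in the type IV values was not tested.

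**Figure D4:**
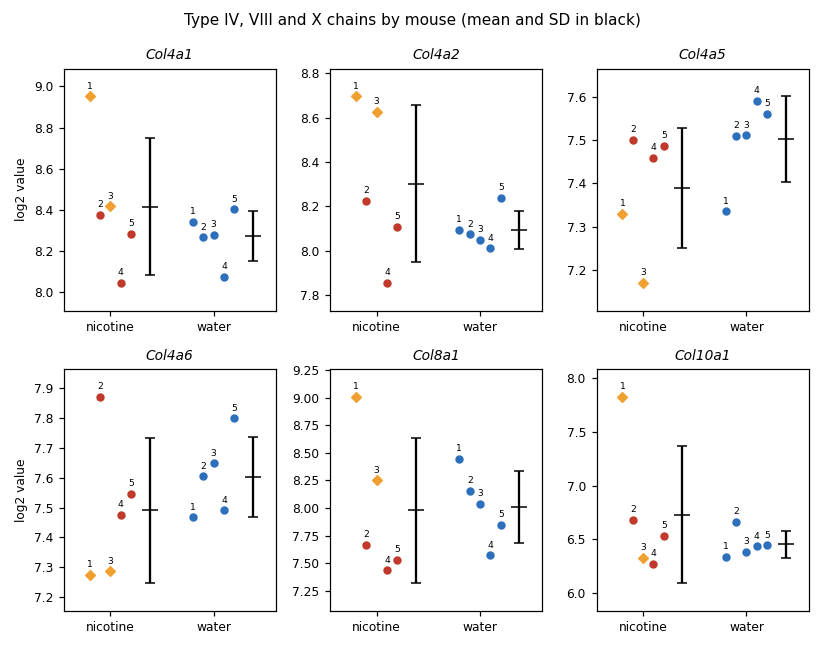
Log2 values of 4 type IV chains, Col8a1 and Col10a1 by mouse, nicotine left and water right in each panel, with the mean and SD of 5 mice in black and diamonds for nicotine mice 1 and 3. The diamonds are the 2 highest points of Col4a1 and Col4a2 and lie at the bottom in Col4a5 and Col4a6, and nicotine mouse 1 is the highest point in Col8a1 and Col10a1.

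Type VI chains form beaded filaments that link cells to the surrounding fibrils. All 6 type VI chains had a negative difference, where 49.3% of all genes did. The differences ran from -0.40 to -0.01 log2 units, with a median of -0.25. The count was 4 of 6 without water mouse 2. It was 5 of 6 without water mouse 4, with arrays centred or quantile-normalized again, or with the seminal vesicle covariate given further on. Without nicotine mice 1 and 3 it was also 5 of 6, with a median of -0.19, where 46.5% of all genes were negative. Col6a1 was at 9.12, 8.83, 8.76, 8.68 and 9.05 in nicotine mice 1 to 5, against 9.25, 9.18, 9.14, 9.04 and 9.27 in water mice 1 to 5. Nicotine mice 2, 3 and 4 were below all water mice. The difference was -0.29 ± 0.10 (SE; unadjusted p = 0.0140, adjusted p = 0.458 by limma), the smallest unadjusted p of the 44 chains, and it was -0.32 ± 0.09 without nicotine mice 1 and 3.

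Col6a2 and Col6a3, which join Col6a1 in the common form of type VI, did not reach an unadjusted p under 0.05. Col6a2 differed by -0.21 ± 0.13 (SE). Col6a3 was at 9.07, 9.12, 8.21, 9.22 and 9.26 log2 units in nicotine mice 1 to 5, against 9.60, 9.37, 9.31, 9.10 and 9.52 in water mice 1 to 5. Nicotine mouse 3 set much of its difference, which was -0.40 ± 0.20 (SE) with all mice and -0.18 ± 0.10 without nicotine mice 1 and 3.

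Col6a5, a later-found alternative to Col6a3, had a pair of probe sets that gave unequal values. The one with the higher mean was at 8.07, 7.97, 7.57, 8.18 and 8.08 log2 units in nicotine mice 1 to 5, against 8.15, 8.40, 8.12, 8.47 and 8.26 in water mice 1 to 5, a difference of -0.31 ± 0.12 (SE; unadjusted p = 0.0326). The other was at 7.02, 7.43, 6.75, 7.81 and 7.48 in nicotine mice 1 to 5, against 8.61, 8.26, 8.23, 8.64 and 8.24 in water mice 1 to 5. In this probe set the groups did not overlap, and the means were 7.30 ± 0.41 in nicotine mice and 8.40 ± 0.21 in water mice (SD, n = 5 each).

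In the fit that takes each gene's most variable probe set, that difference was -1.10 ± 0.19 (SE; unadjusted p = 0.000221, adjusted p = 0.459 by limma), the 3rd smallest p of all genes tested there. Without nicotine mice 1 and 3 the same probe set differed by -0.82. Both probe sets carry the same RefSeq transcript in the annotation, and no source used here tells which part of the gene each one reads. Col6a6, the neighbour of Col6a5 on chromosome 9, differed by -0.01 ± 0.09.

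**Figure D5:**
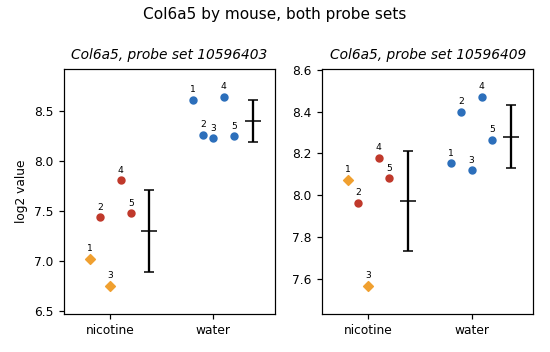
Log2 values of both Col6a5 probe sets by mouse, nicotine left and water right, with mouse numbers and the mean and SD of 5 mice in black; vertical scales differ. In the left panel every nicotine mouse, up to 7.81, is below every water mouse, from 8.23, and in the right panel the groups overlap.

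The remaining chains, of the network, anchoring fibril, transmembrane and multiplexin types, included Col8a1, Col10a1, Col15a1, Col17a1 and Col18a1, which were chosen for description after their values were seen. Col8a1, a network chain of vessel walls and of Descemet's membrane in the eye, was at 9.01, 7.67, 8.25, 7.44 and 7.53 log2 units in nicotine mice 1 to 5, against 8.45, 8.15, 8.04, 7.57 and 7.85 in water mice 1 to 5. Nicotine mouse 1 was the highest of all, and nicotine mice 4 and 5 the lowest. Its difference was -0.03 ± 0.30 (SE) with all mice and -0.47 ± 0.16 (unadjusted p = 0.0154, adjusted p = 0.217 by limma) without nicotine mice 1 and 3. Col10a1, the collagen of growth plate cartilage cells, was at 7.83 in nicotine mouse 1, at 6.27 to 6.68 in the other 4 nicotine mice and at 6.34 to 6.66 in water mice. The mean of the skeletal muscle marker list was also high in nicotine mouse 1, at 10.1, against 7.09 to 7.41 in the other nicotine mice and 7.25 to 7.39 in water mice, and its part in the Col10a1 value was not tested.

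Col15a1 and Col18a1 encode multiplexins, which carry sugar chains and sit at basement membranes, around vessels among other places. Col15a1 was at 8.55, 7.98, 8.17, 7.84 and 7.94 log2 units in nicotine mice 1 to 5, against 8.43, 8.23, 8.21, 8.11 and 8.31 in water mice 1 to 5. Nicotine mice 2, 4 and 5 were below all water mice and nicotine mouse 1 above all of them. The difference was -0.16 ± 0.13 (SE) with all mice and -0.34 ± 0.07 (adjusted p = 0.0995 by limma) without nicotine mice 1 and 3. Col18a1 differed by 0.15 ± 0.08 and, without those mice, by 0.08 ± 0.08. The 4 transmembrane chains, among them the hemidesmosome chain Col17a1 of basal epithelial cells (0.09 ± 0.09), had differences from -0.02 to 0.13.

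The water mice also differed among themselves in these chains. Of the 7 chains at an unadjusted p under 0.05, 5 were highest among water mice in water mouse 1. The share of all genes highest there was not counted, and the 7 were picked for higher values in water mice. Of the remaining 37 chains, 26 were lowest among water mice in water mouse 1, and over all 44 chains 26 were, where 3742 of the 14953 tested genes were lowest there. Without water mouse 1, 3 chains were lower at an unadjusted p under 0.05, and the differences of the 7 chains then ran from -0.50 to -0.26. The count was also 3 without water mouse 2 or 3, 5 without nicotine mouse 3, 4 without nicotine mouse 2, 4 or 5, and 4 with arrays centred on their medians or quantile-normalized again, so the number 7 depends on single mice and on the scaling. In these fits 0 chains were higher, except 1 without water mouse 2 and 2 without nicotine mouse 4. Over all tested genes, 1514 had such a p in either direction as reported. The count was 995, 1094 and 784 without water mouse 1, 2 or 3, and 1887 without nicotine mouse 3. It was 1839, 2490 and 2033 without nicotine mouse 2, 4 or 5. With arrays centred it was 1654, and with arrays quantile-normalized again 1662. The lower direction of the 7 held in each of these fits.

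The enzymes and partners that build collagen are given from fixed lists. Of 28 tested genes of collagen synthesis and processing, 3 were lower and 0 higher at an unadjusted p under 0.05, 0 passed by limma after adjustment, and the median was -0.10 log2 units, where 5.84% of all genes were lower. The 3 were Lox (-0.90 ± 0.37 SE) and Loxl3 (-0.27 ± 0.09), which cross-link fibrils, and Pcolce (-0.61 ± 0.25), which helps to cut the end off fibrillar procollagens. Pcolce was at 9.38, 9.56, 8.20, 9.39 and 9.56 in nicotine mice 1 to 5, against 10.1, 9.87, 9.86, 9.71 and 9.61 in water mice 1 to 5, with no overlap. Without nicotine mice 1 and 3 the Pcolce difference was -0.33 ± 0.10 and 5 genes of the list were lower, where 8.69% of all genes were. Serpinh1, the collagen chaperone, differed by -0.01 ± 0.12.

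Of 15 tested partners of type IV in the basement membrane, 3 were lower and 0 higher at an unadjusted p under 0.05, where 5.84% of all genes were lower, with a median of -0.06 log2 units and none past the adjusted threshold by limma. The laminin genes Lama2 (-0.48 ± 0.12 SE) and Lama4 (-0.36 ± 0.10) did not overlap between the groups, with all nicotine mice below, where 2.88% of all genes did so, and Nid1, which ties laminin to type IV, differed by -0.53 ± 0.16. These 3 differences were -0.46 ± 0.08, -0.35 ± 0.11 and -0.61 ± 0.15 without nicotine mice 1 and 3. Of 9 collagen receptors, 0 reached an unadjusted p under 0.05 with all mice, with the smallest p for the integrin gene Itga1 (-0.39 ± 0.19), Lair1 (-0.33 ± 0.15) and Ddr2 (-0.36 ± 0.17).

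Marker lists of several cell types were read on the same arrays. The mean of 12 fibroblast markers other than collagens was between 7.99 and 9.00 in nicotine mice, with 8.69 to 8.93 in nicotine mice 2, 4 and 5, against 9.08 to 9.35 in water mice. Of the 11 fibroblast markers tested, 10 were negative with all mice and 11 without nicotine mice 1 and 3, with medians of -0.46 and -0.45. The fibroblast mean was lowest in nicotine mouse 3. In that mouse Col1a2, Col3a1, Col5a2, Col6a1, Col6a5 and Col12a1 lay below every water mouse. Col1a1, Col8a1, Col14a1 and Col15a1 lay within the range of the water mice there. These are the chains that were lower at an unadjusted p under 0.05 without nicotine mice 1 and 3. The macrophage list mean was 8.43 to 8.90 in nicotine mice, against 8.79 to 9.55 in water mice. All 8 of its members were negative in both fits, with medians of -0.39 and, without nicotine mice 1 and 3, -0.37. In each fit 5 were lower at an unadjusted p under 0.05 by limma. Of all genes 5.84% were lower with all mice and 8.69% without nicotine mice 1 and 3. The endothelial list mean was 8.48 and 8.00 in nicotine mice 1 and 3 and 7.75 to 7.90 in nicotine mice 2, 4 and 5, against 7.97 to 8.19 in water mice. Much of the high mean in nicotine mouse 1 came from 1 of the 10 members. That gene was at 11.3 there, against 7.76 to 8.06 in every other mouse. Of the endothelial members, 7 of 10 were negative, and 10 of 10 without nicotine mice 1 and 3. The proliferation list mean was 9.85 to 11.1 in nicotine mice, against 9.41 to 9.59 in water mice, with all 8 members positive. The part of these markers in the chain values was not tested.

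In a fit that took the mean of the seminal vesicle list as covariate, the differences were -0.50 ± 0.17 (SE) for Col1a2, -0.63 ± 0.17 for Col3a1, -0.73 ± 0.26 for Col12a1 and -0.54 ± 0.14 for Col14a1, and none passed by limma (adjusted p = 0.858 each). The Col1a1 difference was then -0.48 ± 0.22.

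A fit with array weights, which lowers the influence of arrays that deviate from the rest, called chains where the unweighted fits did not. It gave nicotine mouse 3 a weight of 0.0321 and nicotine mouse 1 one of 0.113, against 1.40 to 4.67 in the other nicotine mice and 0.952 to 4.54 in water mice. In it 6 chains were lower at an adjusted p under 0.05 by limma and 0 were higher, where 4.49% of all genes were lower and 2.84% higher. The 6 were Col1a1 (-0.47 ± 0.13 SE), Col1a2 (-0.48 ± 0.10), Col5a2 (-0.29 ± 0.08), Col12a1 (-0.59 ± 0.14), Col14a1 (-0.55 ± 0.09) and Col15a1 (-0.28). The calls rest on the weights.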

How the data were processed

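Total RNA from prostate was measured on 1 Affymetrix array per mouse, single-colour with biotin label, after whole-transcript amplification, per the labels' protocols. The authors deposited log2 values for 35556 probe sets. No source used here names the background correction, summarisation or normalization; array medians ran from 7.50 to 7.57, and the scale was read as log2 from the range of 3.59 to 14.1. The platform annotation named the probe sets: 21789 had 1 symbol, 1621 several and 12146 none in it. Those with 1 symbol gave 19938 genes, the probe set with the highest mean standing for each. All 44 chains matched a RefSeq gene by Entrez identifier, with the same symbol. The 25% of genes with the lowest mean were left out.

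Nicotine was compared with water by limma 3.58.1 in R 4.3.3 (lmFit, eBayes, two-sided) with Benjamini-Hochberg adjustment over 14953 genes at 0.05. SEs are moderated. Alternatives varied the scaling, the filter, the probe set standing for a gene, array weights, a covariate, a replicate block and the mice left out. The mice may differ by litter or scan, which the sources used here do not give. Members, classes and lists were chosen with earlier results of these data known. Chains named in the text are, per class, the 4 with the highest mean, the 3 with the smallest p, and partner chains, 20 in all; 8 more, and the ranges of others, were named after their values were seen. From the lists, up to 3 members with the smallest p were named, beside Serpinh1, which was chosen after its values were seen. The test, run on 5 simulated data sets of 14953 genes, recovered 41.2% of genes changed by 0.5 log2 units and 75.2% at 1. In the real arrays the median SD over all tested genes was 0.26 log2 units in nicotine mice and 0.097 in water mice. It was 0.079 in nicotine mice 2, 4 and 5. Whether the recovered shares hold for groups that spread so unequally was not tested.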

Additional observations from a re-analysis of the deposited data

Results flagged for a closer look

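In 4 of 78 groups of 5 mice examined, for the named genes, a single mouse lay far from the other 4 of its group relative to the group's range; chance gives about 1 in 20. Col6a3 was at 8.21 log2 units in nicotine mouse 3, below the 9.07 to 9.26 of the other nicotine mice. Pcolce was at 8.20 in the same mouse. Col10a1 was at 7.83 in nicotine mouse 1, above the other nicotine mice. Nid1 was at 9.53 in water mouse 1, above the other water mice.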

How the results depend on the processing

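With 21 other settings, 0 chains and 0 genes passed by limma in all but 1. Array weights called 6 chains and 1096 genes; at an unadjusted p under 0.05 the reported fit had 7 chains and 1514 genes. Leaving out 1 mouse gave 0 in each case, and medians from -0.01 to 0.07 log2 units for fibrillar chains, -0.07 to 0.005 for type IV, 0.02 to 0.10 for FACIT and -0.03 to 0.04 for other chains. With the 50% of genes with the lowest mean left out, the medians were 0.18 for type IV and -0.11 for FACIT chains, as 2 and 5 chains remained. Of 28 named chains, 20 kept their direction in every setting. Without the arrays with Chga above 9, Col4a1 (-0.037), Col4a2 (-0.029), Col4a4 (0.0036), Col4a6 (0.028) and Pbsn (0.20) turned, and Col4a4 (0.010) turned with array weights. Col8a1 turned with arrays centred (0.0033) or quantile-normalized again (0.0068) and without nicotine mouse 2, 4 or 5 or water mouse 1 or 2; leaving out 1 mouse, it ran from -0.29 to 0.10. Col26a1 turned without water mouse 1 (-0.0028), the lowest of its values with 1 mouse left out, which reached 0.13. Col5a1, at -0.0003 as reported, turned with arrays centred (0.035) or quantile-normalized again (0.033), and leaving out 1 mouse it ran from -0.056 to 0.066. Col6a6 turned with arrays centred (0.025), quantile-normalized again (0.021) and with the seminal vesicle covariate (0.012), and leaving out 1 mouse it ran from -0.080 to 0.035. The causes were not tested.

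The mouse numbers occur in both groups. Over all tested genes, deviations of same-numbered mice from their group means correlated at -0.13 to 0.16. Such correlations cannot tell whether same-numbered mice shared a litter or scan, which no source used here gives. With the number as a replicate block, 0 genes passed by limma. At an unadjusted p under 0.05, 8 chains were lower and 0 higher, where 1005 of the 14953 tested genes were called in either direction. In that fit the SE of Col1a1 was 0.10, against 0.23 as reported, and that of Col2a1 was 0.0915, against 0.0892.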
